A study of Mus musculus with 8 samples.

Results

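The 264 CpG islands described here were listed at a methylation level of exactly 0 in each of 8 reduced representation bisulfite sequencing (RRBS) libraries. They were chosen by these values from the 7454 autosomal islands that had a value, 3.54% of them, so their level is a description and was not tested. Of 13840 islands listed, values were held by 7461, including 7 on sex chromosomes, and a value was present either for all libraries or for none. Methylation is given as percent methylation of an island in a library. The number of reads behind a value is unknown, except that the methods ask for over 10 in all libraries, so an island listed at 0 is one without a recorded methylated call, and no interval or detection limit can be attached to it.

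The libraries came from male embryonic stem cells of the mouse (mESCs), grown as primary lines from F1 blastocysts of C57BL/6 mothers and Castaneus fathers, on the way to neuromesodermal progenitors (NMPs). *Smchd1* wt lines had the genotype Smchd1[fl/+], a functional floxed allele over a wild-type allele. *Smchd1* matΔ lines were Smchd1[del/+]: the maternal allele had been removed in the oocyte by Cre under the Zp3 promoter, and the paternal allele was intact in every line. SMCHD1 is a chromatin protein that takes part in gene silencing. For each genotype 2 lines, each from its own blastocyst, were sampled on day 2 and again on day 2.5, giving 4 groups of 2 libraries. Per the study's methods the cells grew in medium with basic FGF, to which CHIR99021 was added on day 2 to activate Wnt signalling. The days therefore differ in treatment as well as in time.

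CpG islands are stretches in which the CpG dinucleotide has been kept at high density, whereas it is depleted from most of the mammalian genome. They cover the promoters of most housekeeping genes and of many developmental genes, and most are free of DNA methylation whether or not the gene is transcribed. Well-known exceptions are imprinted control regions, germline gene promoters and islands of the inactive X chromosome.

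Stretches of 200 bases are shown for 4 of the 264 islands and for 1 island just outside the rule, to make visible how different these sequences are. Each is the stretch with the most CpGs of its island outside annotated untranslated regions, on the plus strand of GRCm38, and capitals mark the CpG dinucleotides. The *Bend4* island had the most CpGs within reach of the reads, the *Lpin3* island the highest and the *Islr2* island the lowest deposited CpG ratio, and the *Rfx4* island was among the 3 longest. The *Efcc1* island was at 0 in 7 libraries and had the highest value of all such islands in the remaining one.
Bend4 chr5:67427087-67427286: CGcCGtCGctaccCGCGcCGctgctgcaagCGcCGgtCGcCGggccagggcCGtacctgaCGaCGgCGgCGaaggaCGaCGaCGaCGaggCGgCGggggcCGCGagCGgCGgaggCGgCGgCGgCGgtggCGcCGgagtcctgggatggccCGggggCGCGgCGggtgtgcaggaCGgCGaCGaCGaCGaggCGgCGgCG
Lpin3 chr2:160887901-160888100: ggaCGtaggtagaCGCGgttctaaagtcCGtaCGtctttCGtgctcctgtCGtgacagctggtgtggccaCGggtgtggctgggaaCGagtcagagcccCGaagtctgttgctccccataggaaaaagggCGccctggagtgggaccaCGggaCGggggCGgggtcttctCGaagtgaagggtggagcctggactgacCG
Islr2 chr9:58199187-58199386: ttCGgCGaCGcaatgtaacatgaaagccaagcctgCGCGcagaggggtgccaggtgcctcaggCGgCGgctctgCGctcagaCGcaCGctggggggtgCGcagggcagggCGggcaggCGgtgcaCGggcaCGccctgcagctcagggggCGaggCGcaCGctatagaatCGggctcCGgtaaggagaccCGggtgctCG
Rfx4 chr10:84754857-84755056: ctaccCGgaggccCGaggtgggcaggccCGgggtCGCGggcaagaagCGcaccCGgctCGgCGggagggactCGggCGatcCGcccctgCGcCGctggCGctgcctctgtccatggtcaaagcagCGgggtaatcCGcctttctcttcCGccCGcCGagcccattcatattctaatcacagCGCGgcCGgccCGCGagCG
Efcc1 chr6:87731054-87731253: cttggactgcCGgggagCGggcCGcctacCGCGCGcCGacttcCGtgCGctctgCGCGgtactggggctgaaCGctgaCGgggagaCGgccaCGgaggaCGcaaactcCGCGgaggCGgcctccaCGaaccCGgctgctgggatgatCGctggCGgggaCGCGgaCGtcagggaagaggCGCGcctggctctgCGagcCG
The stretches held 43 CpGs in *Bend4*, 16 in *Lpin3*, 22 in *Islr2*, 26 in *Rfx4* and 30 in *Efcc1*. Dense and sparse CpG sequence both occurred among the islands at 0.

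The islands at 0 in every library were shorter than the others. Their median length was 699.5 bp (quartiles 536 and 915.5, range 403 to 2838 bp), and that of the other 7190 autosomal islands with values was 812 bp (quartiles 601 and 1112). The CpG ratio deposited with each island, a measure of observed over expected CpGs whose formula is not given in the sources used here, was nearly the same, with a median of 0.845 (quartiles 0.78 and 0.91) against 0.86 (0.79 and 0.92). A ratio of observed over expected CpGs computed from the genome sequence had medians of 0.867 and 0.891. It is not the same measure as the deposited ratio. Among the islands at 0 its highest value was 1.11, whereas the deposited ratio reached 1.28. GC content had medians of 67.96% and 69.7%, and the number of CpGs was 69 against 87 per island. The 5759 autosomal islands without a value were shorter still, with a median length of 564 bp (quartiles 474 and 769), a median ratio of 0.80 and a median GC content of 66.0%, and the islands at 0 lay between them and the others in each of these measures.

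RRBS reads only the ends of CCGG fragments, so the islands were also compared by readable CpGs, the CpGs of an island that lie within 75 bp of the end of a CCGG fragment of 40 to 300 bp. These fragment sizes are assumed. The islands at 0 had a median of 39 readable CpGs (quartiles 27 and 60, range 2 to 160), and the others 56 (quartiles 37 and 82.75, range 0 to 377). The count does not mark what was in fact read. Some islands with a value had 0 readable CpGs, and the islands without a value had a median of 31 and up to 438. The distributions of length and of readable CpGs were displaced as a whole, whereas those of the CpG ratio nearly coincided. When the others were weighted to the same distribution of readable CpGs, in 7 strata, their median length was 669 bp, below that of the islands at 0, and their median ratio was 0.85. The choice of exactly 0 also bears on the order: the 684 islands at or under 0.5% in every library had a median length of 826 bp and 58 readable CpGs, above the 804 bp and 55 of the remaining islands.

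**Figure D1:**
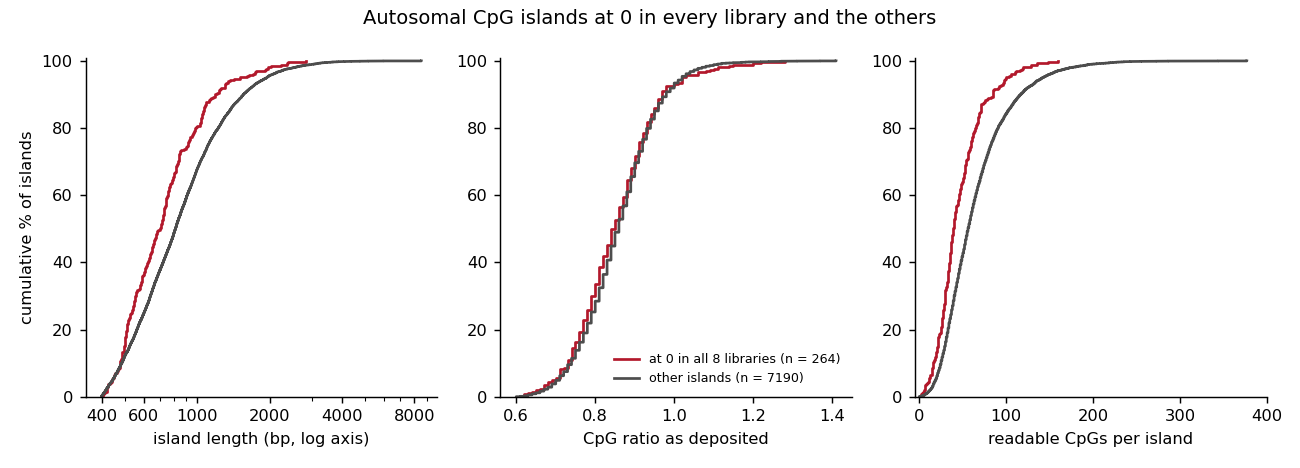
Cumulative percentage of islands by length (bp, log axis), deposited CpG ratio and readable CpGs per island, for the 264 islands at 0 in all 8 libraries (red) and the 7190 other autosomal islands with values (grey). The red curves run to the left of the grey ones for length (medians 699.5 and 812 bp) and readable CpGs (39 and 56), and nearly overlie them for the ratio (0.845 and 0.86).

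The share of islands at 0 in every library fell stepwise with the number of readable CpGs. It was 11.1% (11 of 99) with 0 to 9 readable CpGs, 7.34% with 10 to 19, 5.99% with 20 to 29, 5.24% with 30 to 39, 3.68% with 40 to 49, 3.08% with 50 to 74 and 1.45% (33 of 2269) with 75 or more. Islands with many readable CpGs were under-represented but present. No test was made over islands, which share libraries and are not replicates, and the part of read depth in this order was not tested, because depth is not in the values.

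The number of libraries at 0 formed a continuum. Islands at 0 in none of the libraries numbered 1524, and the counts for 1 to 7 libraries were 1019, 932, 844, 847, 791, 711 and 522, before the 264 at 0 in all 8. Median length fell from 938.5 bp in islands never at 0 to 681 bp in islands at 0 in 7 libraries, and median readable CpGs fell from 67 to 44. The islands at 0 in all 8 libraries lay at the end of this order for readable CpGs and beside its end for length.

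**Figure D2:**
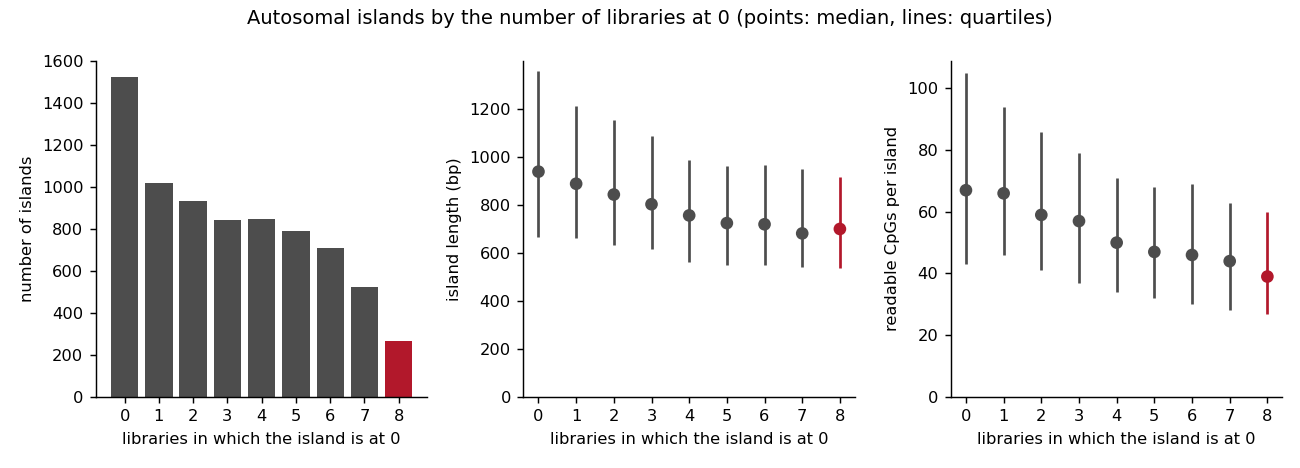
Number of autosomal islands (bars), island length in bp and readable CpGs per island (points, median; lines, quartiles) by the number of libraries in which an island was at 0. Counts fall from 1524 to 264, and the medians of length and readable CpGs fall from 938.5 to 699.5 bp and from 67 to 39.

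The same order was seen in each library on its own. The 8 comparisons share the same islands, and the 264 are among those at 0 each time, so they are not separate repeats. Islands at 0 in a library had median lengths of 729 to 750 bp against 843 to 854 bp for islands above 0, and medians of 47 to 50 against 60 to 61 readable CpGs. The lowest values above 0 that the 8 libraries held were 0.0329 to 0.0619%, so small levels could be recorded in some islands.

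A large minority of all autosomal islands was at 0 in any given library. In *Smchd1* wt at day 2 the share was 40.9% in line 1 and 36.4% in line 2, and at day 2.5 it was 31.5% and 40%. In *Smchd1* matΔ it was 38.3% and 36.5% at day 2, and 42.7% and 39.5% at day 2.5. Line 1 of *Smchd1* wt at day 2.5 was lowest and line 1 of *Smchd1* matΔ at day 2.5 was highest. The genotypes overlapped at both days, as did the days in *Smchd1* wt, whereas both *Smchd1* matΔ libraries of day 2.5 were above both of day 2.

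No difference in this share between genotypes or between days passed its test, which a design with 2 lines per group cannot pass. At day 2 it was 38.7% ± 3.18 (SD, n = 2) in *Smchd1* wt and 37.4% ± 1.26 (n = 2) in *Smchd1* matΔ, a difference of -1.31 points (two-sided exact permutation p = 1). The corresponding values at day 2.5 were 35.7% ± 6.03 and 41.1% ± 2.26, a difference of 5.37 points (p = 0.667 by the same exact test). Between day 2 and day 2.5 the change was -2.96 points among *Smchd1* wt libraries (p = 0.667, exact test) and 3.72 points in *Smchd1* matΔ, where both lines were higher, by 4.43 and 3.02 points (exact permutation p = 0.333). Adjusted over these 4 comparisons, the p-values from the exact permutation tests were 1, 0.889, 0.889 and 0.889, and 2 libraries against 2 cannot give less than 0.333. The difference at day 2 changed sign without line 1 of *Smchd1* wt at day 2 (0.932 points), and the difference between days in *Smchd1* wt changed sign without line 1 at day 2.5 (1.31 points).

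When any 1 library was set aside, most islands at 0 in the remaining 7 were at 0 in it too. Of the 311 to 355 islands at 0 in any 7 libraries, between 74.4% and 84.9% were at 0 in the library left out. The islands at 0 in both are the same 264 each time by the rule, so this share does not test the choice. The share of all autosomal islands at 0 in that library was 31.5% to 42.7%. Across the genotypes, 683 islands were at 0 in all 4 *Smchd1* wt libraries. Of these 264, or 38.7%, were at 0 in all 4 *Smchd1* matΔ libraries, against 10.4% of all autosomal islands. In the other direction 264 of 777 islands, 34.0%, were at 0 against 9.16% of all. Across the days the shares were 34.9% of 757 islands from day 2 to day 2.5 and 35.5% of 744 from day 2.5 to day 2, against 9.98% and 10.2% of all. The islands at 0 in both sets of 4 libraries are the 264 by the rule, so these shares describe the choice and do not test it. The shares of all islands were not matched for readable CpGs, with which the share at 0 fell, and the part of coverage was not tested. Over all 683 islands at 0 in *Smchd1* wt, the mean of the *Smchd1* matΔ libraries had a median of 0.263% and a maximum of 5%, and it was at least 1% in 75 of them (10.98%) against 18.0% of all islands. For the other 3 choices the median was 0.278% to 0.294%, the maximum was 5% to 10.2%, and 10.2% to 11.6% of the islands had a mean of at least 1%.

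**Figure D3:**
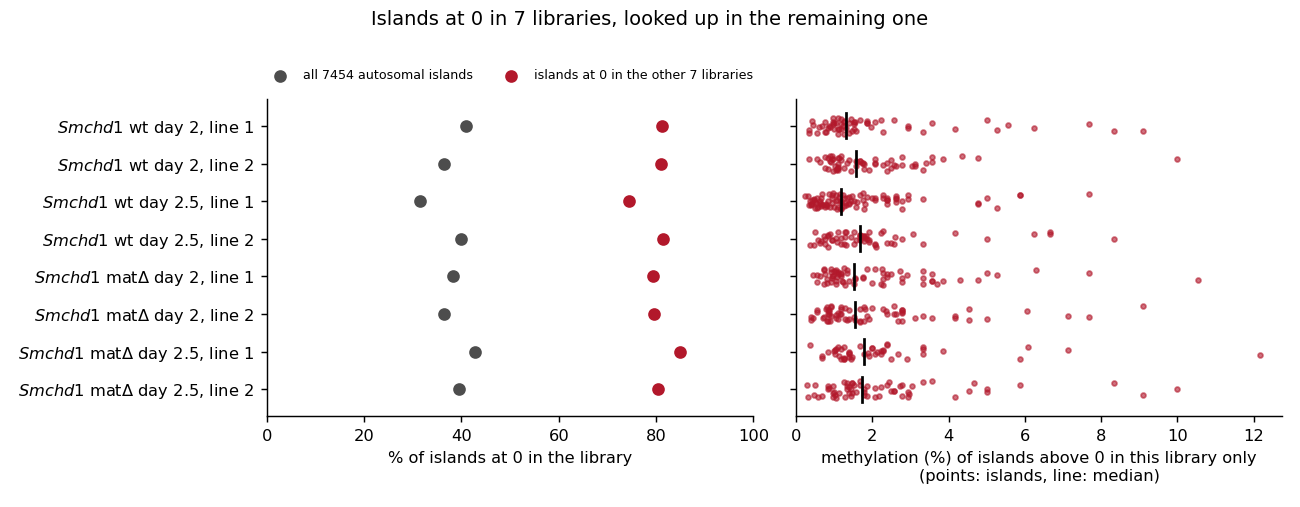
Left, percentage of islands at 0 in each library, for all 7454 autosomal islands (grey) and for those at 0 in the other 7 libraries (red). Right, percent methylation of the 522 islands that were above 0 in 1 library only, shown in that library (points, islands; line, median). The red points lie at 74.4 to 84.9% and the grey ones at 31.5 to 42.7%, and the medians on the right lie at 1.19 to 1.79%.

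Just outside the rule were 522 islands at 0 in all but 1 library. Their value in that library had a median of 1.47% and ranged from 0.231% to 12.2%. Between 47 and 91 of them belonged to each library, the most to line 1 of *Smchd1* wt at day 2.5 (91) and the fewest to line 1 of *Smchd1* matΔ at day 2.5 (47), which also had the lowest and the highest share of all islands at 0. The lowest values were at the islands of *Serinc5*, which encodes a membrane protein that restricts retroviral infectivity (0.231%), *Kdelr2*, a receptor that returns proteins to the endoplasmic reticulum (0.286%), and *Rnf149*, a ubiquitin ligase gene (0.312%). The highest were at the islands of *Efcc1* (12.2% in line 1 of *Smchd1* matΔ at day 2.5), of *Gata4*, a transcription factor of endoderm and heart (10.5% in line 1 of *Smchd1* matΔ at day 2), and of *Glul*, the glutamine synthetase gene (10% in line 2 of *Smchd1* matΔ, day 2.5). All 6 of these islands were at 0 in their other 7 libraries and held a transcript start. Islands inside the rule are all at 0 by definition.

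Nearly all the islands at 0 were promoters. A transcript start of the GENCODE annotation lay inside 246 of them (93.2%), and within 2 kb of 258 (97.7%). Among the other islands with values a start lay inside 90.2%, among the 5953 others with a mean level under 1% inside 94.5%, and among the others weighted to the same readable CpGs inside 87.9%, so the islands at 0 did not stand apart from islands of low methylation in this respect. The autosomal islands without a value held a start in 44.2%. Of the 18 islands at 0 without a start inside, 9 lay on a coding exon, 3 on another exon, 1 in an intron and 5 between genes.

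Islands from which coding genes start on both strands made up a larger share. There were 35 such islands at 0 (13.3%), against 8.41% of the other islands with values, 9.56% of the others with a mean under 1% and 8.27% of the others weighted to the same readable CpGs. The share was higher among the islands at 0 than among the others in each of the 7 strata of readable CpGs, with the closest values, 9.09% and 7.96%, in the stratum of 75 or more. The strata held only 11 to 62 islands at 0, so single islands move these shares, and the difference was not tested. Starts of any gene type on both strands were found in 21.2% of the islands at 0 and in 19.4% of the others. Among the others with a mean under 1% they were found in 21.2%, the same share as in the islands at 0. The islands with the most readable CpGs among the 35, chosen here after their values were seen, lay between *Thap2* and *Zfc3h1* (chr10:115384252-115385961, 106 readable CpGs) and between *Asf1a*, a histone chaperone, and *Mcm9*, a gene of DNA repair (chr10:53596540-53597857, 86).

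The islands at 0 with the most readable CpGs, a count from the genome and not of CpGs seen in reads, were all promoters. The *Bend4* island (chr5:67426645-67428157), at a gene of a BEN domain protein, had 160 readable CpGs of 199. It was followed by the islands of *Map7*, a microtubule-binding protein (148), *Tlk2*, a kinase of histone chaperones (136), *Klhl2*, an adaptor of a ubiquitin ligase (129), and *Tle1*, a Groucho co-repressor (128). *Zhx2*, a zinc finger and homeobox repressor, had 119, *Barhl2*, a homeobox gene of the nervous system, 118, *Dek*, a chromatin protein, 116, *Bcl11b*, a zinc finger factor of T cells and neurons, 111, and *Usp24*, a deubiquitinase, 110. All 10 islands held the transcript start of the gene named, and they lay on 8 chromosomes.

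Length and CpG ratio varied widely among the 264. The longest were those of *Zfp521*, a zinc finger gene (chr18:13970140-13972977, 2838 bp, 63 readable CpGs), *Rfx4*, a transcription factor of the developing brain (chr10:84754735-84757111, 2377 bp, 71), and *Barhl2* (chr5:106457149-106459518, 2370 bp, 118). The shortest were shared by *Wdfy1* and *Mrpl44*, a mitochondrial ribosomal protein gene (chr1:79775984-79776386, 403 bp, 2 readable CpGs), an intergenic island 6815 bp from the nearest start, that of the homeobox gene *Tlx1* (chr19:45143460-45143865, 406 bp, 27), and the island of *St3gal2*, a sialyltransferase (chr8:110919887-110920296, 410 bp, 16). Deposited ratios were highest at *Lpin3*, a lipin gene of lipid synthesis (1.28, 2 readable CpGs), *Ccdc86* (1.22, 25) and *Washc5*, a subunit of the WASH complex (1.20, 36). They were lowest at a coding exon of *Islr2*, a neuronal membrane protein (0.62, 39 readable CpGs), at a coding exon of *Fam20a* (0.62, 35) and at the promoter of *Svil*, an actin-binding protein (0.63, 29). The ratio computed from the sequence was at most 1.11 in the 264, so this ranking holds for the deposited ratio only. The islands with 2 readable CpGs, at *Wdfy1* and *Lpin3*, had the fewest of all 264.

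Among 15 gene lists, genes of the proteasome, of RNA polymerases and of splicing had the highest share. Of the 79 islands with values within 2 kb of a start of a proteasome, RNA polymerase or splicing gene, 7 (8.86%) were at 0 in every library, against 3.54% of all autosomal islands, and 2.96 would be found at the shares of their strata of readable CpGs. They were the islands of *Snrpb*, an Sm protein of the spliceosome (61 readable CpGs), *Prpf6* and *Prpf8*, both splicing factors (42 and 14), *Polr2i*, a subunit of RNA polymerase II (40), and *Psmd3*, *Psmb5* and *Psmd5*, proteasome genes (34, 29 and 12). The number is small and was not tested. The list does not name every gene of its kind, so the share holds for the listed genes only. Outside the list, the splicing genes *Lsm8* and *Snrnp35* and the proteasome maturation gene *Pomp* also had islands at 0. Ribosomal protein genes had 2 of 89 islands (2.25%) at 0, at *Rpl11* (58) and *Mrpl44* (2), where 3.85 would be found at the shares of their strata.

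Developmental regulators were found near the share of all islands. Of 174 islands of homeobox and other developmental transcription factor families, 6 (3.45%) were at 0, and 4.78 would be found at the shares of their strata. These were the islands of *Barhl2*, of *Zic1* (chr9:91364074-91365981, 103 readable CpGs), within 2 kb of which *Zic4* also starts, of the forebrain homeobox genes *Dlx1* (58), *Lhx6* (40) and *Dlx5* (29), and a coding exon of *Vax1* (40). Genes with symbols of the Zfp series, which leave out zinc finger genes of other names such as *Bcl11b* and *Zhx2*, had 4 of 123 islands (3.25%), at *Zfp521*, *Zfp282* (57), *Zfp64* (41) and *Zfp672* (19). Channel genes had 2 of 59 (3.39%), at *Kcnmb4* (98) and *Kcnk6* (56), where 1.69 would be found at the shares of their strata. A further island at 0, on a coding exon of the potassium channel gene *Kcnh2* (11), lay 2769 bp from the nearest start, beyond the 2 kb used for the lists. Solute carriers of the Slc series had 2 of 127 (1.57%), at the thiamine transporter *Slc19a2* (85) and the metal transporter *Slc39a14* (35), where 5.07 would be found at the shares of their strata. The organic anion transporter gene *Slco5a1*, outside that series, also had an island at 0 (65 readable CpGs).

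None of the islands at 0 belonged to the other 9 lists, which do not name every gene of their kind. These were the *Hox* genes (22 islands with values), germline-imprinted genes (13), clustered protocadherins (3), pluripotency genes (12), neuromesodermal and early lineage genes (20), germline genes (6), genes of DNA methylation and CpG island proteins (19), Polycomb genes (28) and histone genes (6). At the shares of their strata between 0.253 and 0.802 islands would be found in each, so these lists are too small for a count of 0 to show a difference. The Polycomb subunit gene *Phc3*, which the Polycomb list lacks, had an island at 0 (chr3:30968683-30969506, 60 readable CpGs). The *HoxD* cluster did hold 1 island at 0 that is not within 2 kb of a *Hox* start, on an exon of the long non-coding RNA gene *Haglr* (chr2:74752889-74753402, 29 readable CpGs).

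**Figure D4:**
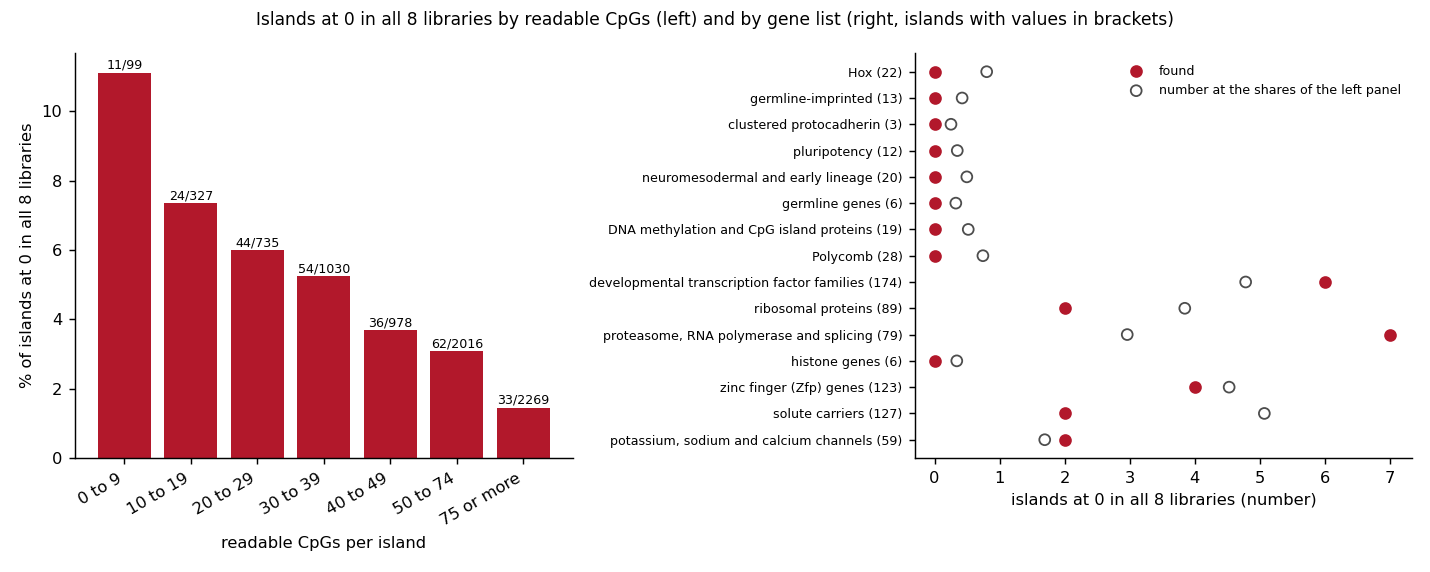
Left, percentage of autosomal islands at 0 in all 8 libraries by readable CpGs per island, with the number at 0 and the number of islands above each bar. Right, number of islands at 0 in each of 15 gene lists (filled) beside the number that the shares on the left would give (open), with the islands with values in brackets. The bars fall from 11.1% to 1.45%, and the list of proteasome, RNA polymerase and splicing genes has 7 islands at 0 beside 2.96.

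The islands at 0 lay on all 19 autosomes. Their number was highest on chromosome 2 (24 of 633 islands with values, 3.79%) and chromosome 10 (23 of 358, 6.42%). Their share was highest on chromosome 16 (18 of 222, 8.11%), where 7.94 would be found at the shares of the strata of readable CpGs, and on chromosome 10, where 11.96 would be found. The share of islands at 0 on chromosome 16 was 39.2% to 54.1% in single libraries.

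Chromosome 8 had the lowest share, with 6 of 523 islands (1.147%) where 19.4 would be found at the shares of the strata. The 6 were at *Tubgcp3*, *Dlc1*, *Klhl2*, *Rbl2*, *Tango6* and *St3gal2*, named here after their values were seen. In single libraries 11.3% to 25.2% of the islands of chromosome 8 were at 0, against 32.98% to 44.0% over the other 18 autosomes together, and the difference was negative in 8 of 8 libraries, at -26.6 to -18.8 points. Over the other chromosomes taken singly the share in a library was 24.0% to 54.1%. Chromosome 8 also had the highest percentage of listed islands with a value, 72.9%, where the next was 67.1% on chromosome 11 and the lowest 46.1% on chromosome 18. The median level of all its islands was higher than elsewhere in each library, 0.417% to 0.475% against 0.25% to 0.334%, whereas the median of its values above 0 was the lowest of the 19 autosomes, 0.545% against 0.605% to 0.741%. Its islands were ordinary in sequence, with a median length of 783 bp and 54 readable CpGs. Read depth is not in the values, so its part in this difference was not tested. Without chromosome 8 there were 258 islands at 0 of 6931 (3.72%).

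**Figure D5:**
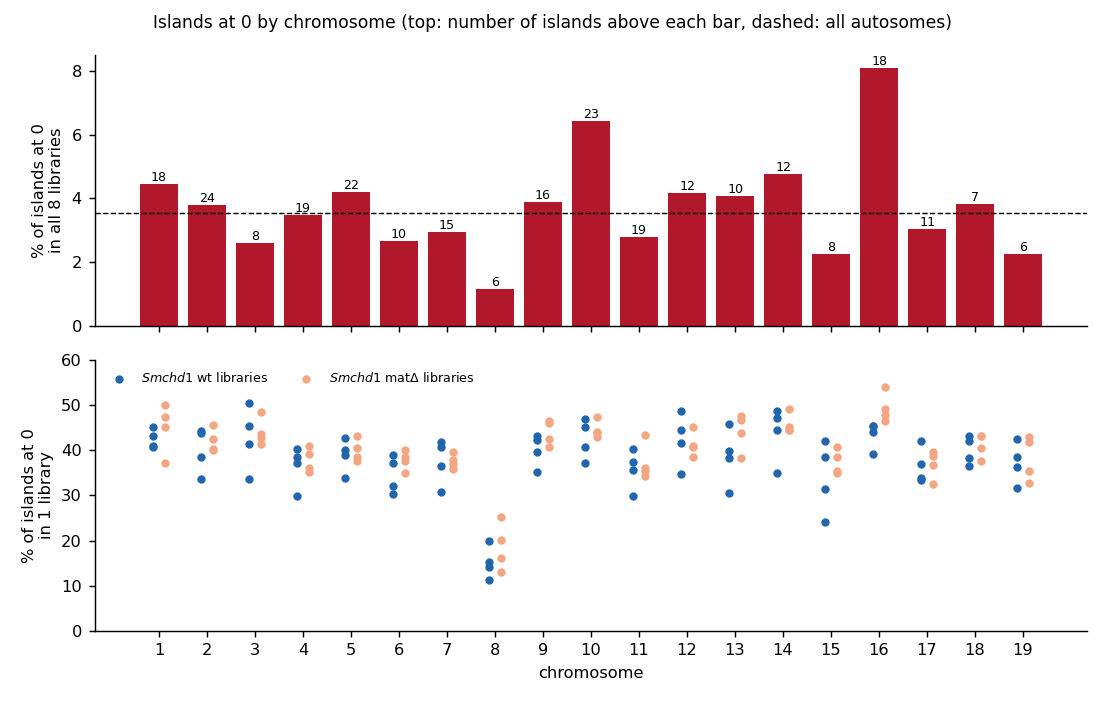
Top, percentage of islands with values that were at 0 in all 8 libraries, by chromosome, with the number above each bar and the share over all autosomes (3.54%) as a dashed line. Bottom, percentage of islands at 0 in each of the 4 *Smchd1* wt (blue) and 4 *Smchd1* matΔ (orange) libraries. Chromosome 8 is lowest in both panels (1.147%, and 11.3 to 25.2% in single libraries), and chromosome 16 is highest in the upper one (8.11%).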

How the data were processed

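RRBS had been performed on 8 libraries, grouped here by the genotype and time that the labels give into 4 groups of 2 lines. Per the study's methods, reads were trimmed with TrimGalore and Cutadapt 1.15 and stripped of the kit's diversity bases, aligned to GRCm38.p6 with Bismark 0.20.0, and summarised over CpG islands in SeqMonk for islands above 10 reads in all libraries. Each deposited value is the percent methylation that the authors computed for an island of 1 library, without normalisation between libraries. Depth per island and per library is unknown, so zeros are of unequal precision. The labels name no batch. A second deposited table, the islands of the *Hox* clusters with 4 columns of means, is a part of the same table and was not used.

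Islands at 0 in all libraries were compared with the others by counts and medians, with no test over islands. CpGs, CCGG fragments and sequences were read from the GRCm38.p6 genome, and islands were annotated with GENCODE M21. The share of islands at 0 was compared between groups of libraries with two-sided exact permutation tests and Benjamini-Hochberg adjustment over 4 comparisons (Python 3.11.15, numpy 2.4.6, pandas 2.3.3, scipy 1.17.1). The steps were tested on simulated data. No fit across islands was made, since the islands at 0 do not vary.

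The members, the gene lists and the rules were chosen with earlier results of these data known. By rule the text names the 3 longest and 3 shortest islands, the 3 with the highest and 3 with the lowest ratio, the 10 with the most readable CpGs, up to 4 per gene list, and of the islands at 0 in all but 1 library the 3 lowest and 3 highest. *Prpf8*, *Psmb5*, *Psmd5*, *Lsm8*, *Snrnp35*, *Pomp*, *Dlx5*, *Vax1*, *Kcnh2*, *Slco5a1*, *Phc3* and the *Haglr* island were named beyond that rule after their values were seen. Alternatives were a tolerance of 0.5% in place of 0, all chromosomes, other comparison sets, at least 10 readable CpGs, fragments up to 220 bp, all CpGs, other definitions of a promoter, line number as a block and leaving out each library. Leaving out chromosome 8 was chosen after seeing the data.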

Additional observations from a re-analysis of the deposited data

How the results depend on the processing

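With at most 0.5% in every library in place of exactly 0, there were 684 islands instead of 264, and they were longer than the others by 22 bp in the median, with a ratio higher by 0.02, 3 more readable CpGs and a transcript start inside more often by 5.97 points. The 420 islands this adds had medians of 929 bp and 73 readable CpGs. With the same limit, the difference between genotypes in the share of islands per library was 0.604 points at day 2, and that between days in *Smchd1* wt was 0.107 points, both of the opposite sign to exactly 0, while the differences between genotypes at day 2.5 and between days in *Smchd1* matΔ were 1.74 and 1.25 points, against 5.37 and 3.72 at exactly 0.

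Against the others of a mean under 1%, the islands at 0 held a start less often (difference -1.31 points). With the others weighted to the same readable CpGs, the islands at 0 were longer by 30.5 bp, and the difference in readable CpGs was 0 by the construction of the weights.

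Leaving out each library gave 311 to 355 islands at 0, differences in median length of -138 to -98.5 bp, in ratio of -0.02 to -0.01, in readable CpGs of -17 to -15 and in starts inside of 1.94 to 3.36 points. Over the libraries left out, the difference in the share at 0 ranged from -3.56 to 0.932 points for the genotypes at day 2, from 1.10 to 9.63 at day 2.5, from -7.22 to 1.31 for the days in *Smchd1* wt and from 2.13 to 5.32 in *Smchd1* matΔ. With line number as a replicate block, the differences were -1.31, 5.37, -2.96 and 3.72 points as without it, with exact sign-flip p-values of 1, 1, 1 and 0.5, the smallest that 2 pairs allow. The lines pair the days within a genotype and share only a number across genotypes. Leaving out chromosome 8, taking all chromosomes, requiring 10 readable CpGs, fragments up to 220 bp, all CpGs of an island, starts within 2 kb and coding genes alone changed no direction and no call.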

Other observations

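Single genes on no list also had islands at 0, and they are named here after the islands were seen, with no count over all islands beside them and no theme drawn from them. Among them were the histone chaperone gene *Supt16* (chr14:52196635-52197659, 85 readable CpGs), *Supt6* (chr11:78245498-78246299, 41), the elongation factor gene *Supt4a* (11), *Leo1*, a subunit of the Paf1 complex (8), and the chromatin genes *Ep400* (47), *Ino80c* (34) and *Kansl1* (65).

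The 264 islands lay nearest to 262 different genes. *Lin54*, which encodes a DNA-binding subunit of the DREAM complex, had 2 islands at 0 with 1016 bp between them (chr5:100498316-100498862 and chr5:100499879-100500902, 32 and 85 readable CpGs). *Bdnf*, the gene of a neurotrophin, had 2 at 15710 bp from each other (chr2:109677173-109677696 and chr2:109693407-109694207, 31 and 51).

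Islands beside those at 0 differed little in level from islands beside the others, and no test was made. The nearest other island with a value had a median level of 0.393% for the islands at 0 and 0.405% for the others, and it was itself at 0 in every library for 12 (4.55%) against 3.14%. It was methylated at 10% or more for 7 (2.65%) against 2.29%. Where the nearest island lay within 10 kb, its median level was 0.427% for 22 islands at 0 and 0.495% for 942 others, and it was itself at 0 in every library for 2 (9.09%, the *Lin54* pair) against 1.91%. The steepest step within 10 kb was at *Gtdc1*, a glycosyltransferase gene, where the promoter island was at 0 in every library and an island 8238 bp away had a mean of 75.5%.

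Short motifs in the central 200 bases of each island, searched on both strands, were about as frequent in the islands at 0 as in the others. The SP1 box GGGCGG was in 59.1% against 59.8%, the ETS motif CCGGAAG in 9.47% against 8.14%, and the NFY motif CCAAT in 13.3% against 11.6%. The motif AAGATGGC of YY1 was in 1.52% against 2.71%, GCATGCG of NRF1 in 1.14% against 2.16%, the E-box CACGTG in 3.79% against 4.05%, the cAMP response element TGACGTCA in 0.758% against 0.640%, and TATAAA in 0.758% against 1.04%. A match is a description of letters and not of binding.

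On the X chromosome 1 island, at *Ssr4* (chrX:73786897-73787489, 31 readable CpGs), was also at 0 in all 8 libraries, among 7 sex-chromosome islands with values.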
